A study of Rattus norvegicus with 4 samples.

Results

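Axon guidance genes encode the cues and receptors that steer growing axons and that go on to act at synapses. The 58 genes described here were all those of 14497 named genes on the array whose symbol belongs to the semaphorin, plexin, neuropilin, Eph, ephrin, netrin, Dcc, Unc5, Robo or Slit families. The rule uses the symbols alone and no measured value. The symbol pattern also took in Unc50, a Golgi membrane protein unrelated to netrin receptors, and Unc5cl, which is named for its likeness to Unc5c. Both are counted among the 58 and described apart.

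The study treated primary cultures of hippocampal neurons from rat embryos with an shRNA against Gld2 (2 cultures) or with a scrambled shRNA (2 cultures), and each culture was read on 1 array, 4 in all. Gld2, now named Tent2, is a poly(A) polymerase of the cytoplasm that lengthens the tails of selected mRNAs. Before labelling, RNA of all 4 cultures was taken up on poly(U) Sepharose, which holds poly(A) tails, and eluted with heat, so a value reflects how much of a transcript was recovered that way. Less transcript and poorer tail-dependent recovery cannot be told apart. The sources used here do not give the rat strain, the day of gestation, the shRNA sequence, its vector or its promoter. They also leave unsaid whether the cultures within a group were prepared independently, so the p-values measure a spread that may be technical.

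In these families a cue on or released by one cell binds a receptor on the growth cone of another. Semaphorins bind plexins, with neuropilins as co-receptors for most of the secreted class, ephrins bind Eph receptor tyrosine kinases, netrins bind Dcc and Unc5 receptors, and Slits bind Robo receptors. In the hippocampus the same proteins order the layers of incoming fibres and shape dendritic spines.

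All values are log2 RMA values, differences are Gld2 shRNA minus scrambled shRNA, and tests are limma's moderated test, two-sided. P-values were adjusted by Benjamini-Hochberg across all 14497 genes, and genes under 0.05 were called. The targeted transcript, Tent2, measured 9.50 and 9.35 in the Gld2 shRNA cultures, against 10.73 and 10.67 in the scrambled shRNA cultures, a 2.43-fold fall (log2 difference -1.28, SE 0.0751, adjusted p = 0.000754). Array medians over the named genes were 9.16 and 9.11 in the Gld2 shRNA cultures, against 9.20 and 9.20 in the scrambled shRNA cultures. The 6 pan-neuronal markers averaged 12.76 and 12.77 in the Gld2 shRNA cultures, against 12.83 and 12.82 in the scrambled shRNA cultures. None passed the test by limma (1 lower and 0 higher at an unadjusted p under 0.05), all 6 had values below 0, and 3 lay below both controls in both Gld2 shRNA cultures (50%, where 34.5% of all genes did). The 6 astrocyte markers averaged 11.9 on all 4 arrays. The 6 microglia markers averaged 7.46 and 7.60 in the Gld2 shRNA cultures, against 7.37 and 7.36 in the scrambled shRNA cultures. None passed the test by limma (2 higher and 0 lower at an unadjusted p under 0.05), and 5 of the 6 lay above both controls in both Gld2 shRNA cultures (83.3%, where 24% of all genes did). The microglia markers were dim, from the 10.8th percentile of level (Itgam) to the 32.4th (C1qa). Over all genes, dimmer genes had higher differences (Spearman's rank correlation with mean level -0.25). With so few arrays the precision is limited by their number.

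Of the 58 guidance genes, 40 had values below 0 after Gld2 knockdown (69.0%, beside 53.8% of all genes), and 3 of them passed the test. Sema5a, Sema5b and Unc5b fell, 0 members rose, and 55 did not pass. That is 5.17% of the members called lower, where 2.41% of all genes were (349 genes), and 0 called higher, where 1.69% of all genes were. At an unadjusted p under 0.05 by limma, 23 members were lower and 0 higher, where 16.2% and 9.24% of all genes were. The median difference of the 58 members was -0.12, beside -0.02 over all genes. In 36 members both Gld2 shRNA cultures lay below both scrambled shRNA cultures, 62.1% where 34.5% of all genes did, and in 7 members they lay above, 12.1% where 24% of all genes did. The pan-neuronal markers named above lay the same way and the dim microglia markers the other way, and their part in these values was not tested. In these bulk cultures, fewer cells that express a gene and less of its RNA per cell cannot be told apart.

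**Figure D1:**
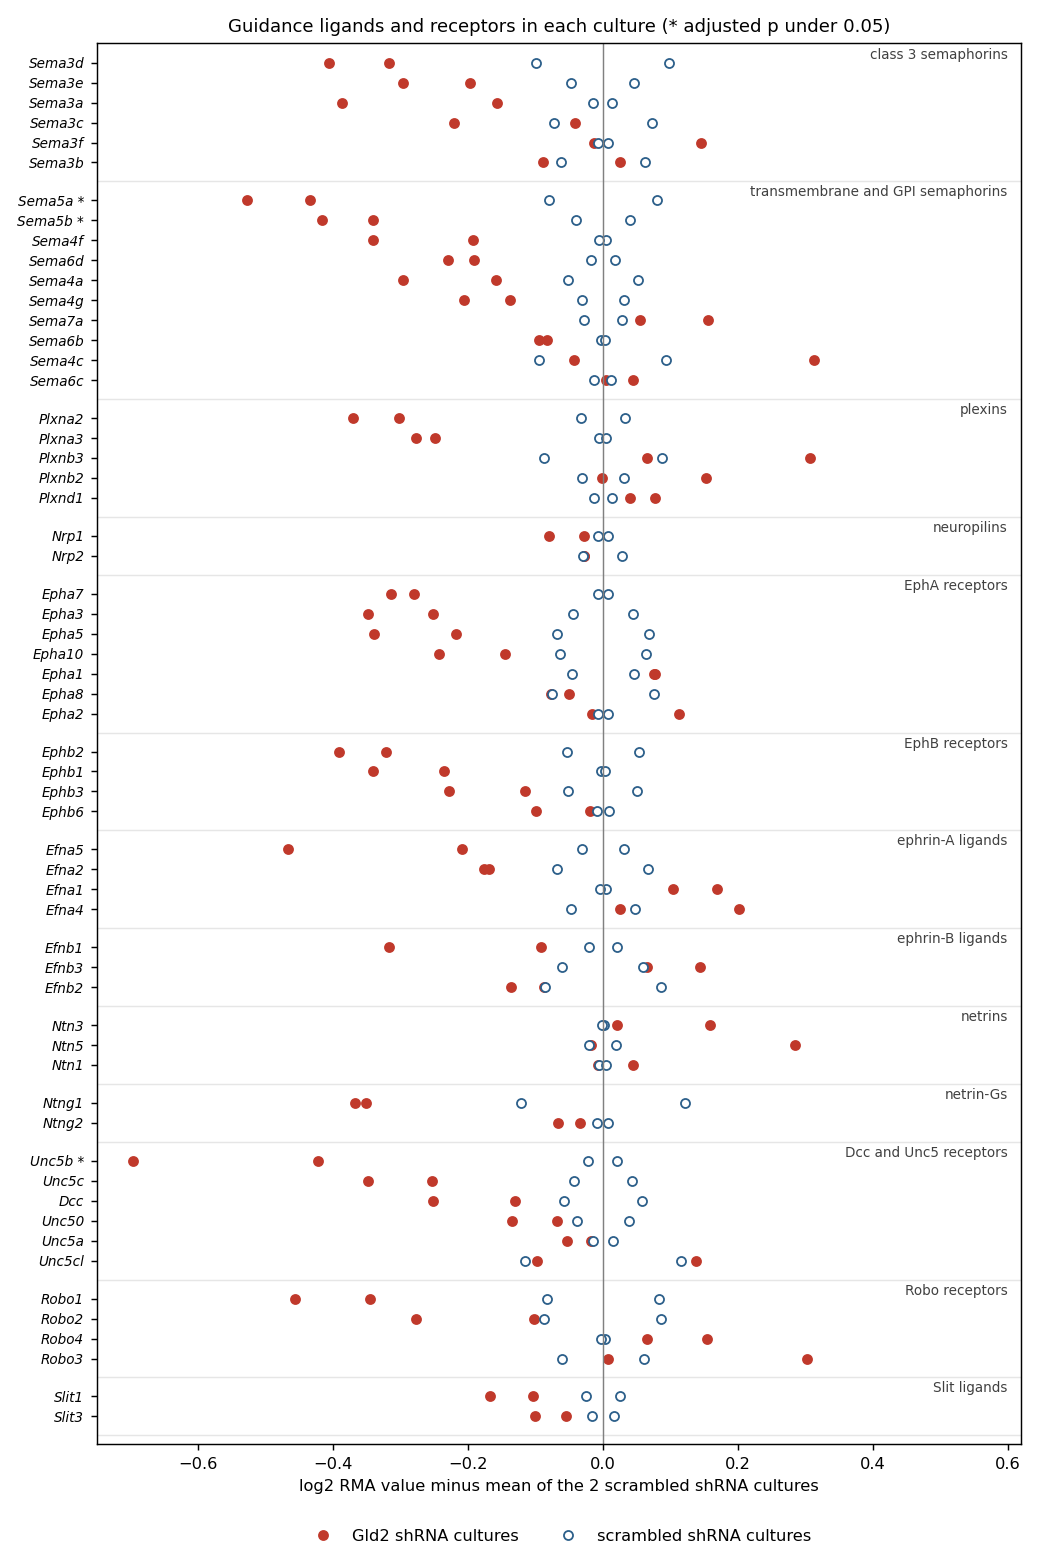
Log2 RMA value of each of the 58 guidance genes in each culture minus the mean of the 2 scrambled shRNA cultures (x axis), by family (y axis), with filled points for Gld2 shRNA cultures and open points for scrambled shRNA cultures. Filled points lie left of both open points in 36 genes and right of both in 7, and the 3 genes with asterisks passed the test.

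Sema5a encodes a transmembrane semaphorin with thrombospondin repeats, which in mice acts through plexin-A2 to limit synapses on dentate granule cells. It measured 10.38 and 10.28 in the Gld2 shRNA cultures, against 10.89 and 10.73 in the scrambled shRNA cultures. The groups did not overlap, and the gap between them was wider than the distance between cultures of either group. The means were 10.33 ± 0.0666 (SD, n = 2) in the Gld2 shRNA cultures and 10.81 ± 0.113 (SD, n = 2) in the scrambled shRNA cultures. Sema5a was 1.40-fold lower (log2 difference -0.48, SE 0.0797, 95% confidence interval -0.68 to -0.29, adjusted p = 0.0370 by limma).

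Sema5b, the other class 5 semaphorin measured, had 9.75 and 9.67 in the Gld2 shRNA cultures, against 10.13 and 10.05 in the scrambled shRNA cultures. Its groups were also apart, with cultures of a group close to each other. It was 1.30-fold lower (log2 difference -0.38, SE 0.0668, 95% confidence interval -0.54 to -0.21, adjusted p = 0.0417 by limma).

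Unc5b encodes a netrin receptor of the repulsive type. It measured 10.12 and 9.85 in the Gld2 shRNA cultures, against 10.57 and 10.52 in the scrambled shRNA cultures. Here the Gld2 shRNA cultures differed more from each other than the scrambled shRNA cultures did, and replicate 2 was the lower. Unc5b was 1.47-fold lower, at 67.9% of the control level (log2 difference -0.56, SE 0.0997, 95% confidence interval -0.80 to -0.31, adjusted p = 0.0419 by limma).

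All 3 calls lay close to the threshold. None held with arrays centred on the median of the named genes, where 0.648% of all genes were called lower. A fit without 1 culture leaves 1 culture in a group, and how many of all genes passed moved widely between such fits. Only their differences are therefore given. Without Gld2 shRNA replicate 2 the log2 difference was -0.43 for Sema5a, -0.34 for Sema5b and -0.42 for Unc5b. Without Gld2 shRNA replicate 1 it was -0.53 for Sema5a, -0.42 for Sema5b and -0.70 for Unc5b. Over the 4 fits without 1 culture Sema5a ran from -0.56 to -0.40 and Sema5b from -0.42 to -0.34 on the log2 scale. Unc5b ran from -0.70 to -0.42, and none of the 3 changed sign.

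The promoters of Unc5b and Sema5b are shown because both genes fell, with that of Unc5a as the Unc5 receptor of the same family with the smallest difference. Each runs from 250 bases before to 50 bases after the RefSeq start (build GRCr8), and all 3 are read 5′ to 3′ from the minus strand. Capitals mark the GC box, GGGCGG on either strand. The windows are chr20:29307221-29307520 for Unc5b, chr11:78730540-78730839 for Sema5b and chr17:9675614-9675913 for Unc5a.
Unc5b: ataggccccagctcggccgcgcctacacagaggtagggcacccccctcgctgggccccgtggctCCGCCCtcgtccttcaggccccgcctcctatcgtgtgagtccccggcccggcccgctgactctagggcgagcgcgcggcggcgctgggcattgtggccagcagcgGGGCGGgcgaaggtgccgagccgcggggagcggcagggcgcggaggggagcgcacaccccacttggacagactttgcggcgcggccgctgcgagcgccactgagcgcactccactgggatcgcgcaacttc
Sema5b: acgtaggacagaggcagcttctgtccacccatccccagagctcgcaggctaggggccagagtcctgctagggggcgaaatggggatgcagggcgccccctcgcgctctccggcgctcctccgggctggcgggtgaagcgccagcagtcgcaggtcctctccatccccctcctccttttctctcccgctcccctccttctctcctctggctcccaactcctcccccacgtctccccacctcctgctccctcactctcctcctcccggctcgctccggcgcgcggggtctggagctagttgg
Unc5a: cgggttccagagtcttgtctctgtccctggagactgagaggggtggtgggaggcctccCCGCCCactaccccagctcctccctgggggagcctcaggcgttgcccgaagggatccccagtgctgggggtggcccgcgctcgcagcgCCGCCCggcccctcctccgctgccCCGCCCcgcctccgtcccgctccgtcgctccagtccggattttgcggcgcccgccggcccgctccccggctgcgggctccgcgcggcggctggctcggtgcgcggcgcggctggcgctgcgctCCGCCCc

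Unc5b held 2 GC boxes, Sema5b 0 and Unc5a 4, in windows of 74.3%, 68.7% and 77.7% G and C. A promoter was matched for 49 of the 58 members, and the member promoters had a median of 60.7% G and C, beside 51.7% over all 33469 promoters. A GC box was in 24 of the 50 member promoters (48%), beside 33.1% of all promoters. The TATA box letters TATAAA were in 0 of 50, beside 14.2% of all promoters and the core of the interferon-stimulated response element in 0 of 50, beside 3.92%. The cAMP response element TGACGTCA was in 1 of 50, beside 1.83%, and the E-box CACGTG in 4 of 50, beside 6.42%. Both strands were searched and each motif was counted separately, whether or not it overlapped another. These matches describe letters in a window and are not sites of binding.

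Both semaphorins that fell were of class 5, and 12 of the 16 semaphorins, the ligands of plexins, had values below 0. Of 10 genes of the transmembrane and GPI-anchored classes, Sema5a and Sema5b fell, 0 rose and 8 did not pass, with a median of -0.19. Sema4f had 10.20 and 10.05 in the Gld2 shRNA cultures, against 10.40 and 10.39 in the scrambled shRNA cultures (-0.27, adjusted p = 0.102 by limma). Sema6d, which binds plexin-A1, had a difference of -0.21, Sema4a one of -0.23 and Sema4g one of -0.17, none past the test and all with both Gld2 shRNA cultures below both controls. Sema6b was at -0.09 with groups that did not overlap. Sema7a, the GPI-anchored semaphorin, was the one member of these classes with both Gld2 shRNA cultures above both controls, at 11.70 and 11.60 in the Gld2 shRNA cultures, against 11.57 and 11.51 in the scrambled shRNA cultures (0.11, adjusted p = 0.365 by limma). Sema6c had 0.02 and overlapped.

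Sema4c was the one member with more than 1 probe set, and its probe sets disagreed. The one used, with the higher mean, had 7.98 and 8.34 in the Gld2 shRNA cultures, against 7.93 and 8.12 in the scrambled shRNA cultures, a difference of 0.14 with overlap. The other had 7.81 and 7.57 in the Gld2 shRNA cultures, against 8.34 and 8.33 in the scrambled shRNA cultures, a difference of -0.64. In a limma fit over all 28826 probe sets their adjusted p-values were 0.599 and 0.0672, so no direction can be given for Sema4c.

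Secreted class 3 semaphorins act through neuropilins and plexin-A receptors, and 0 of 6 passed the test, with 3 at an unadjusted p under 0.05, all lower. Sema3d had 7.92 and 8.01 in the Gld2 shRNA cultures, against 8.43 and 8.23 in the scrambled shRNA cultures (-0.36, adjusted p = 0.0784 by limma). Sema3e, the cue that binds plexin-D1 directly, had 10.28 and 10.38 in the Gld2 shRNA cultures, against 10.62 and 10.53 in the scrambled shRNA cultures (-0.25, adjusted p = 0.109 by limma). Sema3a, the classical growth cone collapsing factor, had 8.34 and 8.11 in the Gld2 shRNA cultures, against 8.51 and 8.48 in the scrambled shRNA cultures (-0.27, adjusted p = 0.139 by limma). In these 3 the groups did not overlap, while Sema3c (-0.13), Sema3b (-0.03) and Sema3f (0.07) overlapped.

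Of the semaphorin receptors, none passed by limma, and 2 of 5 plexins, both of the A class, were lower at an unadjusted p under 0.05. Plxna2, the partner of Sema5a in mouse granule cells, missed the threshold narrowly, at 11.16 and 11.09 in the Gld2 shRNA cultures, against 11.50 and 11.43 in the scrambled shRNA cultures (-0.34, SE 0.0648, adjusted p = 0.0502 by limma). Plxna3 had 10.83 and 10.80 in the Gld2 shRNA cultures, against 11.07 and 11.08 in the scrambled shRNA cultures (-0.26, adjusted p = 0.0716 by limma). The B and D plexins had small positive values, 0.19 for Plxnb3, 0.08 for Plxnb2 and 0.06 for Plxnd1, and of these only Plxnd1 had groups that did not overlap. Both neuropilin genes were near 0, below it as reported and above it with arrays centred on the median of the named genes. Nrp1, the co-receptor for Sema3a, had 11.32 and 11.26 in the Gld2 shRNA cultures, against 11.34 and 11.35 in the scrambled shRNA cultures (-0.05, 95% confidence interval -0.20 to 0.09). Nrp2, which binds Sema3f, had 12.30 and 12.30 in the Gld2 shRNA cultures, against 12.35 and 12.30 in the scrambled shRNA cultures (-0.03, 95% confidence interval -0.18 to 0.12).

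Eph receptors are the largest family of receptor tyrosine kinases, and of 11 measured, 0 passed, 6 were lower and 0 higher at an unadjusted p under 0.05, and 9 had values below 0. Their median was -0.19. Ephb2, which associates with NMDA receptors at excitatory synapses, had 10.06 and 9.99 in the Gld2 shRNA cultures, against 10.43 and 10.32 in the scrambled shRNA cultures (-0.36, SE 0.0693, adjusted p = 0.0510 by limma). Epha7 had 9.79 and 9.83 in the Gld2 shRNA cultures, against 10.11 and 10.10 in the scrambled shRNA cultures (-0.30, adjusted p = 0.0549 by limma). In both genes the gap between the groups was wider than the distance between cultures of either group.

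Ephb1 (-0.29), Epha3 (-0.30) and Epha5 (-0.28) also had groups that did not overlap, with adjusted p-values by limma of 0.0733, 0.0755 and 0.108. Epha10 (-0.19) and Ephb6 (-0.06), both of which lack an active kinase, and Ephb3 (-0.17) lay below both controls in both Gld2 shRNA cultures too. Epha1 (0.08) lay above both controls, and Epha2 (0.05) and Epha8 (-0.06) overlapped. Epha3, Epha5 and Epha7 are known for expression in the developing brain and Epha1 and Epha2 from epithelia. Whether the differences of these receptors differ from each other was not tested.

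The ephrins, their ligands, were mixed, with 0 of 7 past the test by limma and 1 at an unadjusted p under 0.05. Efna5, a GPI-anchored ligand of EphA receptors, had 9.79 and 9.53 in the Gld2 shRNA cultures, against 10.03 and 9.97 in the scrambled shRNA cultures (-0.34, adjusted p = 0.109 by limma). Its Gld2 shRNA cultures were far apart, with replicate 2 the lower. Efna2 was at -0.17, whereas Efna1, at 8.51 and 8.58 in the Gld2 shRNA cultures, against 8.41 and 8.40 in the scrambled shRNA cultures, was at 0.14 (adjusted p = 0.227 by limma), and Efna4 was at 0.11. Of the transmembrane ephrins, Efnb1 (-0.20) and Efnb2 (-0.11) lay below both controls and Efnb3 (0.10) above.

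In the netrin system Unc5b was the one call. Unc5c, another repulsive receptor, had 10.80 and 10.70 in the Gld2 shRNA cultures, against 11.01 and 11.10 in the scrambled shRNA cultures (-0.30, adjusted p = 0.0749 by limma). Dcc, the attractive netrin receptor, had 10.95 and 10.82 in the Gld2 shRNA cultures, against 11.13 and 11.02 in the scrambled shRNA cultures (-0.19, adjusted p = 0.191 by limma). Unc5a was at -0.04 with a 95% confidence interval of -0.18 to 0.11. Unc50 was at -0.10 and Unc5cl at 0.02, neither past the test. The netrins Ntn1 (0.02), Ntn3 (0.09) and Ntn5 (0.13) did not pass, and Ntn5 had 7.64 and 7.94 in the Gld2 shRNA cultures, against 7.64 and 7.68 in the scrambled shRNA cultures, so that replicate 2 alone was high. Netrin-G proteins are GPI-anchored relatives that bind other partners at synapses. Ntng1 had 8.46 and 8.44 in the Gld2 shRNA cultures, against 8.93 and 8.68 in the scrambled shRNA cultures (-0.36, adjusted p = 0.0893 by limma), and Ntng2 was at -0.05.

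Robo1, a receptor of the repulsive Slit cues, had 10.46 and 10.35 in the Gld2 shRNA cultures, against 10.89 and 10.72 in the scrambled shRNA cultures (-0.40, SE 0.0824, adjusted p = 0.0584 by limma). Robo2 was at -0.19 with the groups just apart. Robo3, which works in commissural axons, and Robo4, known from vessels, were at 0.15 and 0.11, and both lay under the 25th percentile of level. The ligands Slit1 (-0.14) and Slit3 (-0.08) had groups that did not overlap and adjusted p-values of 0.239 and 0.457 by limma. None of these 6 genes passed the test, and 1 of them, Robo1, had an unadjusted p under 0.05.

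**Figure D2:**
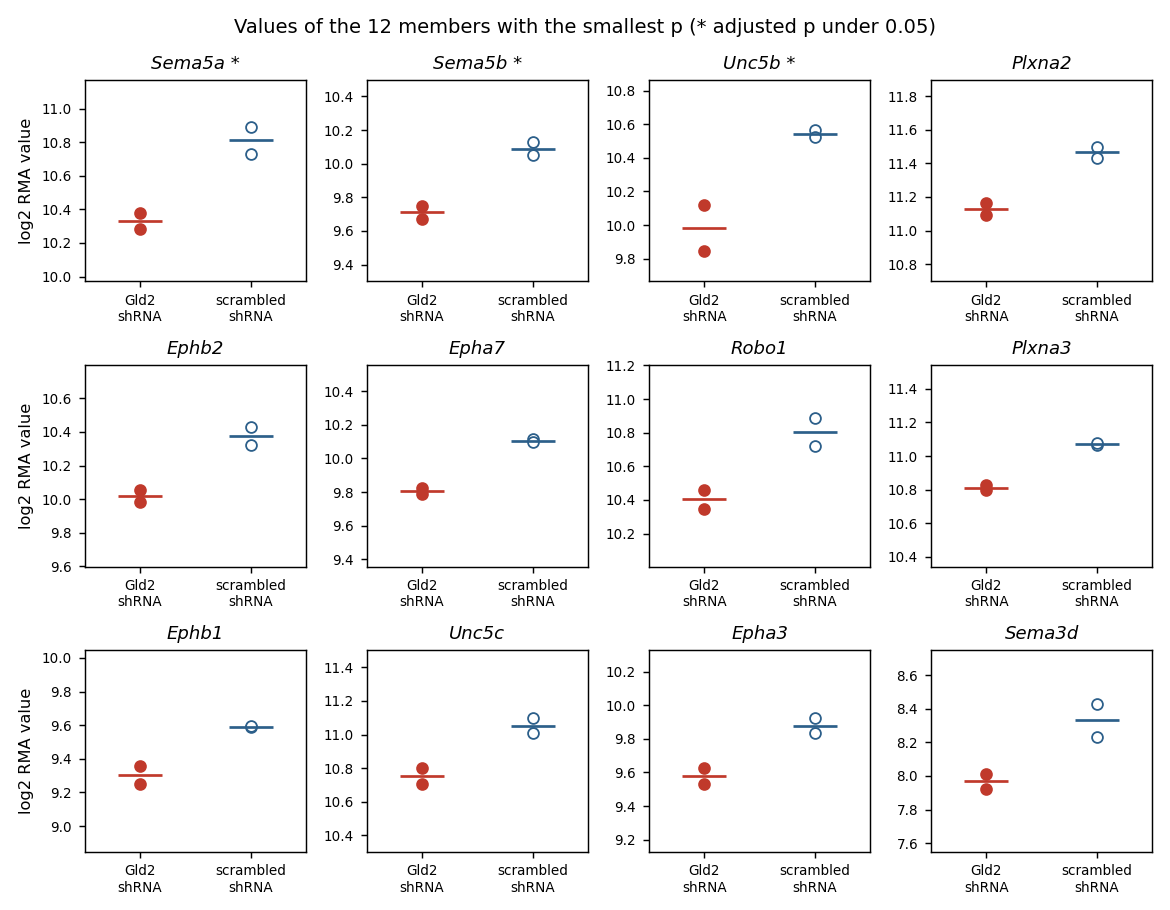
Log2 RMA values (y axis, of equal span in every panel) of the 12 guidance genes with the smallest p, for Gld2 shRNA (left) and scrambled shRNA (right), with points for cultures and lines for the group means. The groups do not overlap in any panel, and only Sema5a, Sema5b and Unc5b (asterisks) passed the test.

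By role, the 28 secreted or membrane-bound ligands had a median of -0.12, with 2 fallen, and the 26 receptors and co-receptors one of -0.18, with 1 fallen, leaving out the netrin-Gs, Unc50 and Unc5cl. Both Gld2 shRNA cultures had medians below 0 over the members, at -0.09 in replicate 1 and -0.14 in replicate 2 against the control mean.

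The members' differences were lower for longer genes, by the genomic span of the gene. The 24 members of 100 kb or longer had a median difference of -0.28, with 23 values below 0, and in 21 of them both Gld2 shRNA cultures lay below both controls (87.5%). At an unadjusted p under 0.05 by limma, 17 of the 24 were lower, beside 596 of the 1633 genes of that length. Over all 1633 genes of that length the median was -0.12, and 60.6% lay below both controls. Of the 24, 2 were called lower, 8.33%, where 8.14% of all genes of that length were. The 28 members under 30 kb had a median of 0.04, with 0 called lower, and all 9335 genes under 30 kb one of 0.02. The 6 members between 30 and 100 kb, Unc5b among them at 66.6 kb, had a median of -0.08, beside -0.06 over all 3516 such genes.

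Across the 58 members, Pearson's r of the difference with log10 length was -0.64 and Spearman's rank correlation -0.67, beside -0.24 and -0.32 across 14484 genes. These describe genes on the same 4 arrays, which are not independent replicates. In both Gld2 shRNA cultures the correlation across members had this sign, at r = -0.56 in replicate 1 and -0.65 in replicate 2. With mean level in place of length, Pearson's r across members was -0.36, at -0.18 in replicate 1 and -0.44 in replicate 2. Across the 14484 genes it was -0.13 with level, at -0.0046 in replicate 1 and -0.23 in replicate 2. The length bounds were chosen with the values known. Within class 3 semaphorins, Sema3a (470 kb), Sema3e (258 kb) and Sema3d (189 kb) had the lower values. Sema3c (164 kb) was at -0.13 with overlapping groups, and Sema3b (11.3 kb) and Sema3f (28.9 kb) were near 0. Exceptions were Nrp1 and Nrp2 (155 and 115 kb), Ntn1 (199 kb) and Slit3 (585 kb), which were long and within 0.1 of 0, and Plxna3 (15.9 kb) and Sema4f (26.3 kb), which were short and below -0.25. With the trend of each array with length removed, 1 member, Unc5b, stayed past the threshold (-0.48, adjusted p = 0.0442 by limma), 1.72% where 1.71% of all genes were called lower (247 genes), Sema5a was at -0.32 (adjusted p = 0.0643) and Sema5b at -0.27 (adjusted p = 0.0688), and the members' median was -0.037.

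**Figure D3:**
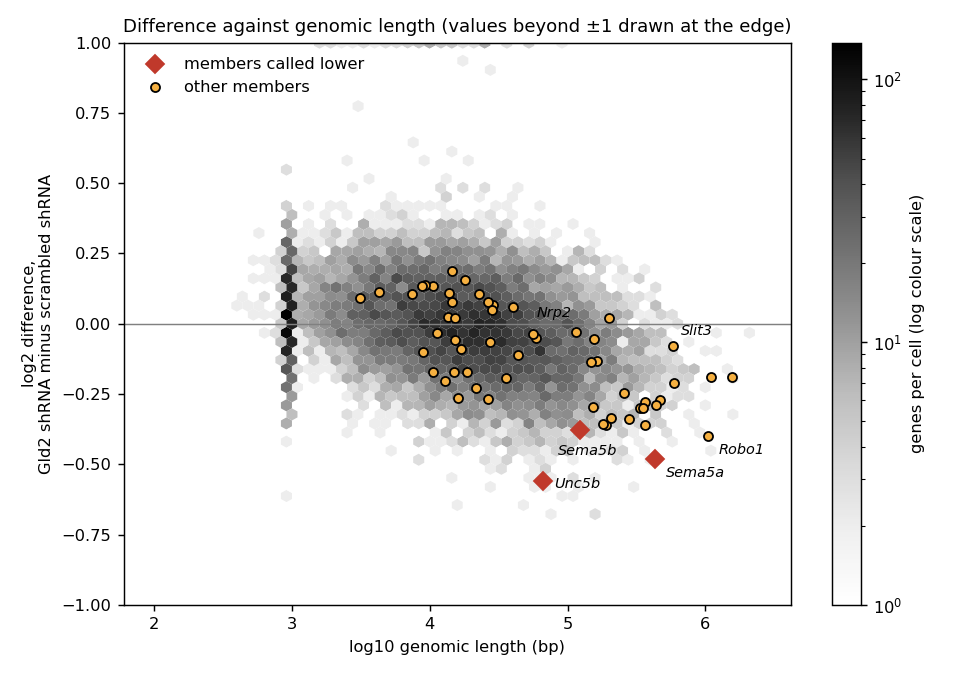
Log2 difference, Gld2 shRNA minus scrambled shRNA (y axis), against log10 genomic length in bp (x axis), for the guidance genes (diamonds for the 3 that fell, circles for the others) over all genes with a length (grey cells). The members of 100 kb or longer lie below 0 in 23 of 24 genes.

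The number of members past the threshold moved widely with the processing. The members' median was below 0 in each of the 11 alternatives in which it changed. Among these, the filters on dim genes left members out and kept the differences of the rest. Averaging probe sets changed Sema4c alone among the members. The other 4 of the 15 refit the same differences of the same genes. Called members numbered 19 of 58 with a level-dependent prior variance, 17 of 37 over genes above the median level and 0 of 58 when arrays were centred on the median of the named genes. Over these 3 settings 11.1%, 17.8% and 0.648% of all genes were called lower. With the other alternative that centred arrays, on the median of all probe sets, 18 members were called, 31.0% where 9.43% of all genes were.

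**Figure D4:**
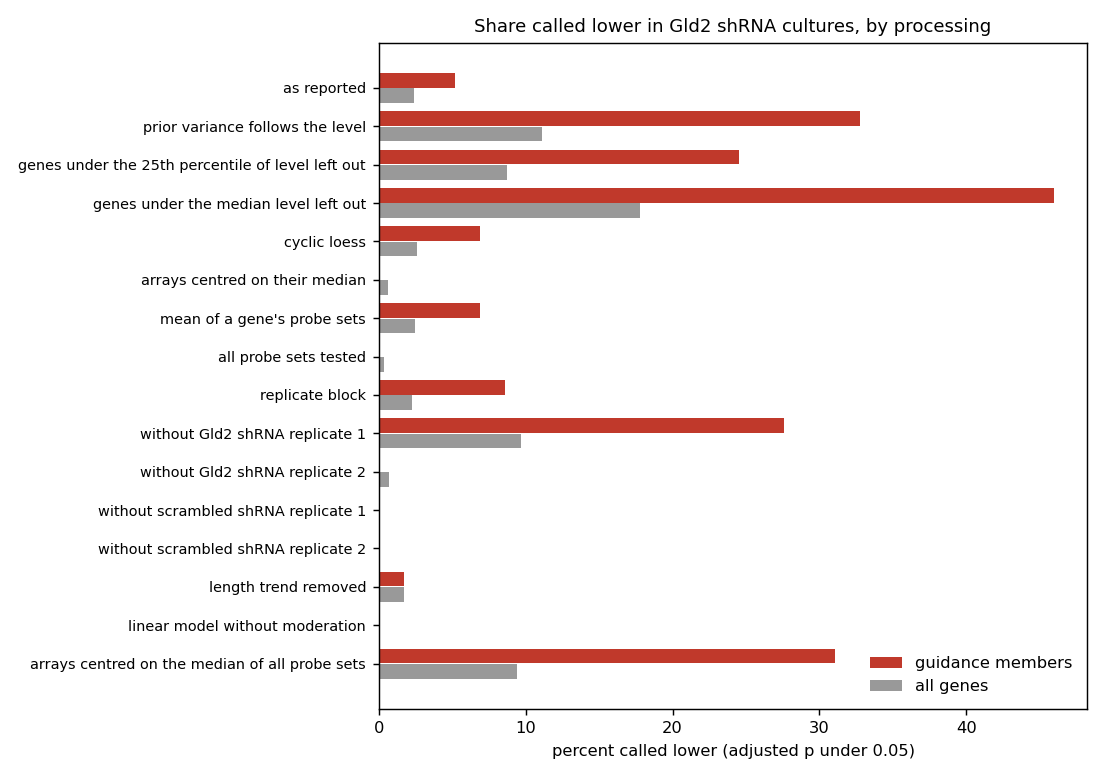
Percent of guidance genes and of all genes called lower at an adjusted p under 0.05 (x axis) as reported and under each of 15 alternatives (y axis). The guidance genes had 5.17% as reported, beside 2.41% over all genes, 45.9% at the highest and 0 in 6 alternatives.

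Other guidance genes outside these families were also mostly below 0 with few calls. Of 27 measured cues, receptors and adhesion co-receptors, 1 fell (3.70%, where 2.41% of all genes did), 0 rose (1.69% of all genes) and 26 did not pass. Values below 0 numbered 25 (92.6%, beside 53.8% of all genes), with a median of -0.14. These genes had a median length of 72.8 kb, beside 18.0 kb over all genes. Of all genes of 30 to 100 kb, 65.2% had values below 0, and the part of length in this list was not tested. At an unadjusted p under 0.05 by limma 11 were lower and 0 higher, where 16.2% and 9.24% of all genes were. Cntn2, which encodes the axonal adhesion protein TAG-1, fell by 0.43 on the log2 scale, to 9.60 and 9.58 in the Gld2 shRNA cultures, against 10.09 and 9.95 in the scrambled shRNA cultures (adjusted p = 0.0385 by limma). Celsr3, a cadherin needed for axon tracts, had 10.40 and 10.41 in the Gld2 shRNA cultures, against 10.70 and 10.71 in the scrambled shRNA cultures (-0.30, adjusted p = 0.0516 by limma). The call of Cntn2 did not hold with arrays centred on the median of the named genes (adjusted p = 0.0833 by limma). Over the fits without 1 culture the difference of Cntn2 ran from -0.50 to -0.36.

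Intracellular proteins that guidance receptors signal through were counted in the same way. Of 49 measured, 3 fell (6.12%, where 2.41% of all genes did), 1 rose (1.69% of all genes did) and 45 did not pass. Values below 0 numbered 40 (81.6%, beside 53.8% of all genes), with a median of -0.10. The median length of the 49 was 103 kb, and of all genes of 100 kb or longer 78.3% had values below 0. At an unadjusted p under 0.05 by limma 14 were lower and 3 higher, where 16.2% and 9.24% of all genes were. Tiam1, an activator of the GTPase Rac that acts downstream of EphB receptors, had 9.69 and 9.67 in the Gld2 shRNA cultures, against 10.39 and 10.34 in the scrambled shRNA cultures. It was 1.61-fold lower (log2 difference -0.69, SE 0.0607, adjusted p = 0.00431 by limma), with cultures of each group nearly equal. Vav2 (-0.35, adjusted p = 0.0417) and Kalrn (-0.36, adjusted p = 0.0455), which also encode guanine nucleotide exchange factors, fell by limma. With the length trend removed neither passed, at -0.23 for Vav2 (adjusted p = 0.0930) and -0.19 for Kalrn (adjusted p = 0.125). Rnd1, whose protein binds plexins, rose, at 10.06 and 10.21 in the Gld2 shRNA cultures, against 9.76 and 9.74 in the scrambled shRNA cultures (0.39, adjusted p = 0.04995 by limma). Of these 4, Tiam1 alone stayed past the threshold with arrays centred on the median of the named genes (adjusted p = 0.0117 by limma). In that setting 0.648% of all genes were called lower. Over the fits without 1 culture the differences ran from -0.71 to -0.66 for Tiam1 and from -0.38 to -0.32 for Vav2. They ran from -0.41 to -0.32 for Kalrn and from 0.31 to 0.46 for Rnd1.

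Of the cell type markers, 2 passed the test by limma. Prox1, which marks dentate granule cells, fell by 0.59 on the log2 scale, at 9.46 and 9.27 in the Gld2 shRNA cultures, against 9.999 and 9.92 in the scrambled shRNA cultures (adjusted p = 0.0259). It was 1 of 5 excitatory neuron markers, whose mean level was 11.69 and 11.62 in the Gld2 shRNA cultures, against 11.86 and 11.83 in the scrambled shRNA cultures. That mean includes Prox1. Neurod6 was at -0.21, Camk2a at -0.08, Slc17a6 at -0.07 and Slc17a7 at 0.02, none past the test. Gja1, which encodes the astrocyte gap junction protein connexin 43, fell by 0.39 (adjusted p = 0.0351), while the other 5 astrocyte markers did not pass. Of the 6 astrocyte markers, 4 lay above both controls in both Gld2 shRNA cultures (66.7%, where 24% of all genes did). Only 1, Gja1, lay below both (16.7%, where 34.5% of all genes did). Of 6 oligodendrocyte lineage, 9 vascular and fibroblast, 3 inhibitory neuron and 3 dividing cell markers, 0 passed, with 1, 1, 1 and 0 lower and 0, 2, 0 and 1 higher at an unadjusted p under 0.05 by limma. The part of these markers in the lower values of Sema5a, Plxna2 and the other members was not tested.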

How the data were processed

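The authors deposited 1 log2 value per probe set and array, which the submitters' processing notes attribute to RMA and affy without settings or versions. RMA subtracts background, equalises the distributions of the arrays and combines probes, so a shift shared by most genes would be lost. The values run from 3.23 to 14.3, as log2 intensities do. Of 28826 probe sets, 15209 carried 1 gene symbol, 306 several and 13311 none. Each gene was represented by its brightest probe set on average, leaving 14497 genes. All 58 members matched the RefSeq table of GRCr8, which gave genomic lengths, missing for 13 genes, and promoter sequences. The genome build of the array annotation was not stated.

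Groups were compared with limma 3.58.1 in R 4.3.3 (lmFit and eBayes), with 2 residual degrees of freedom and 3.96 added by the moderation. On simulated data of the same design and 14497 genes, of which 50 changed at each size, the test recovered 2% at 1.25-fold, 72% at 1.5-fold and 100% at 2-fold. The simulated variances came from the fitted prior, with independent noise and no dependence on level. These rates may therefore differ from those in the measured data. Dim members are included, 5 of them under the 25th percentile of level. Named were all members past the threshold, in each family those with the smallest p and with the highest and lowest level, and the leading genes of the further lists. The members and lists were chosen with earlier results of these data known. Alternatives comprised a level-dependent prior variance, filters on dim genes, cyclic loess, 2 ways of median centring, averaged probe sets, a test of all probe sets, a replicate block, leaving out each culture, removal of a length trend (lowess, span 0.3) and a linear model without moderation. Centring on the median of all probe sets was added after seeing the data. A fit without 1 culture takes the spread of the lone culture left in that group from the other group.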

Additional observations from a re-analysis of the deposited data

How the results depend on the processing

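As reported, 3 members were called lower and 0 higher, with a median of -0.12. Called lower were 19 members with a level-dependent prior variance (32.8%, where 11.1% of all genes were). The 25th percentile filter gave 13 of 53 (24.5%, where 8.73% of all genes were). The median filter gave 17 of 37 (45.9%, where 17.8% were). Centring on all probe sets gave 18 (31.0%, where 9.43% were) and removal of the length trend 1 (1.72%, where 1.71% were). None was called with centring on named genes, all probe sets tested or no moderation, where 0.648%, 0.345% and 0% of all genes were. At an unadjusted p under 0.05 in limma or the linear model, 17, 20 and 11 members were lower in the same settings. No unadjusted counts over all genes are given for these settings, so these member counts stand without a background. Leaving out 1 culture gave 0 to 16 lower, 0 to 1 higher and medians of -0.135 to -0.089. The median was -0.171 and -0.191 with the 2 filters, -0.055 with cyclic loess, -0.051 and -0.145 with the 2 centrings and -0.037 without the length trend. Centring moved the median of all genes to 0.05 or -0.04.

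The other guidance list had 11 lower with the level-dependent prior, 7 with the 25th percentile filter and 10 with the median filter. It had 0 with centring on named genes, all probe sets or no moderation, and 7 with centring on all probe sets. The effector list had 11, 6, 12, 1, 1, 0 and 7 lower and 3, 2, 2, 0, 0, 0 and 2 higher in the same settings, in that order. It had 2 higher with cyclic loess and 1 lower without the length trend. Over all genes 1611, 949, 1287, 94, 50, 0 and 1367 were lower, and 3 to 1406 without 1 culture. Higher genes numbered 621, 127, 1, 558 and 370 with the level-dependent prior, all probe sets, no moderation, centring on all probe sets and cyclic loess, and 82 to 1283 without 1 culture.

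With the final digit of the titles as a replicate block, 5 members were called lower, Ephb2 and Robo1 joining the 3, where 2.29% of all genes were (332 genes), and of the effector list Vav2 and Rnd1 were no longer called (adjusted p = 0.0530 and 0.0535 by limma). The digits are not stated to pair the cultures, and the deviations of the cultures numbered 1 correlated at 0.143.

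The 18 members that changed sign in any alternative were all uncalled as reported. With cyclic loess these were Epha1 (-0.0012), Ephb6 (0.048), Ntng2 (0.058) and Unc5cl (-0.055). Centred on named genes they were Sema3b (0.039), Nrp1 (0.016), Nrp2 (0.042), Epha8 (0.0062), Ephb6 (0.011), Ntng2 (0.020) and Unc5a (0.035), and centred on all probe sets Ntn1 (-0.0045) and Unc5cl (-0.0033). Without the length trend they were Nrp1 (0.063), Nrp2 (0.077), Ntng2 (0.025), Dcc (0.0046), Unc5a (0.037), Robo2 (0.021) and Slit3 (0.093), and with the mean of both probe sets Sema4c (-0.25). Without 1 culture Plxnb2 ran from -0.00098 to 0.15, Sema3f from -0.013 to 0.15, Sema3b from -0.094 to 0.031, Sema4c from -0.043 to 0.31, Epha2 from -0.016 to 0.11, Ntn5 from -0.017 to 0.28, Ntn1 from -0.0066 to 0.045, Unc5cl from -0.097 to 0.14, Nrp2 from -0.057 to 0.00095 and Epha8 from -0.14 to 0.012. The cause of these changes was not tested.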
